A study of Ictidomys tridecemlineatus with 15 samples.

Results

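The 100 gene rows described here were those whose RNA was most concentrated in amacrine cells (AC) of the developing retina of the 13-lined ground squirrel (13LGS), a diurnal rodent with a cone-dominant retina. They were 100 of 34181 rows in a matrix of unique molecular identifiers (UMIs), each UMI standing for 1 captured RNA molecule. Whole retinas were profiled by droplet scRNA-Seq, and the study's cell type annotation was used as deposited. UMIs were summed per row over all cells of each of the 12 annotated types and expressed as CPM, the UMIs of a row per 1000000 UMIs of that type. The score of a row was log2 of the AC level over the level in the highest other type, with 10 CPM added to both. Members were selected on this score: the 100 highest among rows with at least 50 CPM in AC formed the list. The gene names held here do not carry row numbers, so rows are given by their number in the matrix, no gene is named and no role can be given for a member. For the same reason the AC, ganglion and horizontal labels were not checked against marker genes, and no sequence is printed.

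Amacrine cells are inhibitory interneurons of the inner retina. They contact bipolar cells, ganglion cells and one another in the inner plexiform layer, and most release GABA or glycine. They comprise many subtypes, some of them rare, which differ in transmitter, neuropeptide and shape. Retinal ganglion cells (RGC), the output neurons, and horizontal cells (HC), the inhibitory interneurons of the outer retina, are born early in neurogenesis. Late-stage neurogenic progenitors (Late_NG) are cells that are leaving the cell cycle and beginning to differentiate.

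The 46474 cells used came from 14 libraries of whole retina, 7 embryonic and 7 postnatal. E21, E24, E26, P8 and P12 had 2 libraries apiece, and a single library stood for E18, P4, P17 and P21. The animals were bred in captivity. The labels do not say how many animals a library holds, so the tests measure the spread between libraries, which may be technical in part. The letters a and b mark the libraries of 1 time point. The median UMI count per cell was 5230.5 to 11868 in embryonic and 1548 to 4175 in postnatal libraries, so depth ran with stage. AC were 9841 of the cells (21.2%), none of them from E18, E21 or E24. E26a held 108 AC, E26b held 1, and each postnatal library held 315 (P8b) to 1872 (P17). AC made up 0 to 2.77% of the cells of embryonic libraries and 23.0 to 47.5% of those of postnatal libraries. The summed AC profiles held 385803 (E26a) to 7036779 (P17) UMIs, and E26b was left out of values by library within AC because a type needed at least 10 cells in a library.

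The list ran from rows found almost entirely in AC to rows that were only moderately higher there. These values chose the members and are given as a description. Of 3455 rows with at least 50 CPM in AC, 673 were highest in AC. The AC level of the 100 members was 50.01 to 2167 CPM with a median of 101.8 CPM, and 49 members lay under 100 CPM. The AC level was 1.69 to 36.5 times that of the highest other type, with a median of 2.50. It was at least 4 times higher in 21 members and at least 10 times higher in 5. AC held 22.5 to 94.3% of a member's UMIs (median 44.6%), against 10.5% of all UMIs. The 10 most abundant members held 40.2% of the list's UMIs in AC.

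The 5 members at or above the 10-fold line were the first 5 by score. Row 1702 led the list with 1677 CPM in AC, where 93.7% of its UMIs lay, against 77.1 CPM in rods. Row 26074 had 392.2 CPM in AC and 15.6 CPM in Müller glia (MG), and row 26403 had 198 CPM in AC and 12.3 CPM in rods. Row 11394, at 88.5 CPM in AC, and row 1079, at 54.2 CPM, were lower in abundance, and row 1079 had the widest gap to its highest other type, 1.48 CPM in Late_NG. A high score thus did not require a high level. The next 5 members by score, row 25527, row 14232, row 30679, row 25508 and row 11236, had 297, 115, 104, 66.7 and 196 CPM in AC and stood 4.69 to 7.21 times above the highest other type. The 2 members at the end of the list were row 19981 (score 0.73) and row 17035 (score 0.72), and the 2 rows just outside it were row 27339 (score 0.71) and row 32093 (score 0.69), so the limit falls in a continuous range of scores.

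The highest other type was RGC for 31 members, bipolar cells (BC) and rods for 21 each, HC for 14, cones and MG for 5 each, and Early_RPC, Late_NG and Late_RPC for 1 each (RPC, retinal progenitor cells). Rods numbered only 150 cells with 324308 UMIs, so that 1 UMI in rods equalled 3.08 CPM. With rods left out of the comparison, 96 of the 100 rows were selected again.

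Over all cells pooled, RGC held a median of 26.3% of the AC level of a member (0.20 to 54.9%), HC 12.7% (0.24 to 58.1%) and Late_NG 6.57% (0 to 45.1%). A member lay above 50% of its AC level in RGC for 6 rows, in HC for 4 and in Late_NG for none. Under 5% lay 13 rows in RGC, 30 in HC and 44 in Late_NG, and 1 member had no UMI in Late_NG. The most abundant member in all 3 types was row 20296, with 2167 CPM in AC, 730 CPM in RGC, 360 CPM in HC and 460 CPM in Late_NG. The next were row 26998 in HC (253 CPM, against 451 CPM in AC), row 17035 in RGC (168 CPM, against 307 CPM in AC) and row 28237 in Late_NG (115 CPM, against 255 CPM in AC). These abundant rows all came from the lower end of the list, at ranks 86 to 100.

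The pooled levels mix ages, because 80.5% of RGC and 80.1% of HC were embryonic whereas nearly all AC were postnatal. Over postnatal cells alone, RGC reached a median of 52.7% of the AC level and HC 21.9%, while Late_NG stayed at 6.58%. AC was then the highest type for 73 of the 100 rows, RGC for 13, HC for 8 and Early_RPC, of which only 7 postnatal cells were present, for 6. RGC exceeded AC in 16 rows, HC in 10 and Late_NG in 0. Choosing the list anew from postnatal libraries kept 57 of the 100 rows. The 7 Early_RPC cells counted as a full type in that choice, and their part in the loss was not tested. By the medians of the RGC level, members stood apart from RGC less clearly over postnatal cells than over all cells pooled.

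Within single libraries the members were highest in AC more often the older the retina. Of types with at least 10 cells, AC was the highest for 28 of the 100 rows in E26a, 44 in P4, 54 in P8a, 55 in P8b, 70 in P12a, 72 in P12b, 75 in P17 and 85 in P21. RGC was the highest for 46 rows in E26a and 41 in P4, and for 13 in P17 and 14 in P21. The number of types compared differed, with 10 in each P12 library and 6 in P21. HC (1 cell) and Late_NG (0 cells) were not among the types compared in P21, whereas in P17 HC was the highest type for 12 rows. The counts of P17 and P21 are therefore not like for like. When the list was chosen without a library and then read in it, AC was the highest type for 27 of 100 rows in E26a, 40 in P4, 51 in P8a, 54 in P8b, 67 in P12a, 63 in P12b, 71 in P17 and 83 in P21. Of all rows with over 50 CPM in AC, the share highest in AC was 8.10 to 21.04% in these libraries, with the highest share in P21. The annotation itself was made on all of these cells, so no library was fully independent of it. The P12 and later libraries held 77.2% of the pooled AC UMIs that chose the list, which favored rows high in later AC. Embryonic libraries held 83.7% of the RGC and 86.6% of the HC UMIs, so levels in postnatal RGC or HC weighed little. The rise of these counts with age is therefore a description. Lists chosen without a library still used the other libraries, and whether they leaned the same way was not tested.

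Within AC the list as a whole took a growing part of the RNA with age. The 100 rows summed to 0.63% of AC UMIs in E26a, 1.07% in P4, 1.23% in P8a, 1.497% in P8b, 1.67% in P12a, 1.49% in P12b, 1.86% in P17 and 3.02% in P21. P21 stood above every other library, and the P8 libraries differed from each other by more than P4 did from P8a. Row 1702 alone took 0.54% of AC UMIs in P21, and the other 99 rows took 2.48%. The median member went from 15.6 CPM in E26a and 48.3 CPM in P4 to 159 CPM in P21. P21 supplied 19.2% of the pooled AC UMIs and 31.8% of the list's UMIs in AC, so the choice of members leaned towards rows that were high in that library.

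Most members followed this course one by one. Within AC, 80 of the 100 rows were lowest in E26a and 58 were highest in P21, followed by P17 (12 rows), P8b and P12b (10 each), P12a and E26a (4 each) and P4 (2). Averaged by time point, 85 rows were higher at P8 than at P4, 78 at P12 than at P8, 64 at P17 than at P12 and 69 at P21 than at P17. At all 4 steps 33 rows were higher than before, and 0 were lower at all of them. At P21, 64 rows were at least 2 times and 19 at least 10 times their P4 level, whereas 2 were at least 2 times below it. Of the 100 rows, 11 lay under 10 CPM at P4 and 2 had no UMI there. The share of all rows with such courses was not computed, and E26a is a single library of 108 AC. The P12 and later libraries held 77.2% of the AC UMIs that chose the list, so these counts are a description.

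**Figure D1:**
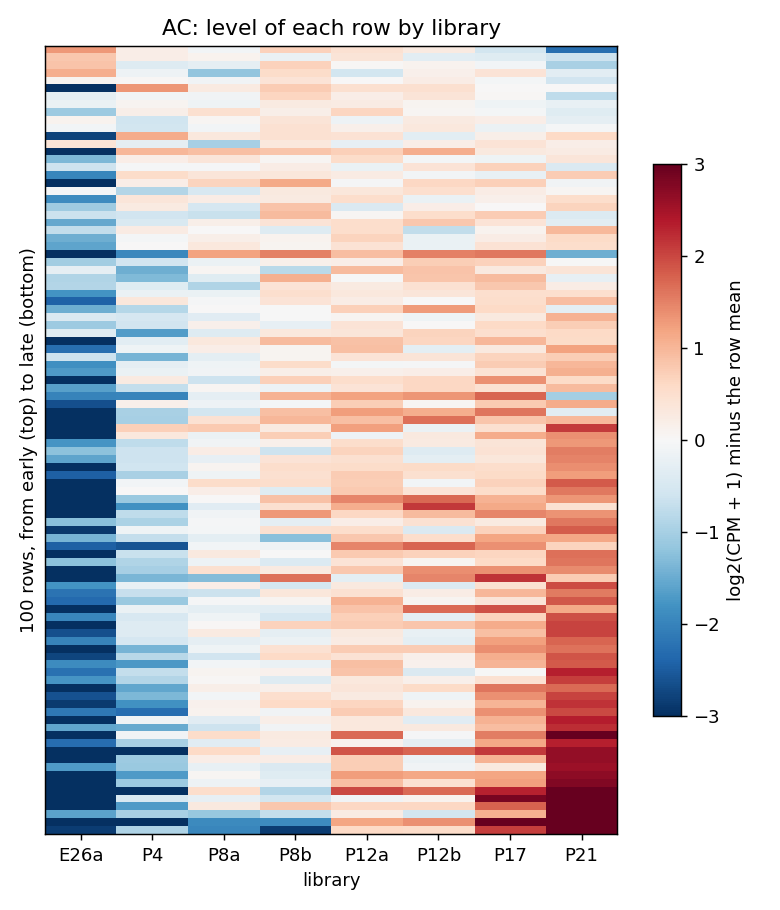
Levels of the 100 rows (1 line each) in AC of the 8 libraries with at least 10 AC, as log2(CPM + 1) minus the row's mean over the libraries; red is above and blue below that mean, and lines are ordered by the UMI-level-weighted mean position of each row along the libraries. Most lines turn from blue in E26a and P4 to red in P21, where 58 rows were highest, and a few lines at the top run the other way.

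Row 1702, the first by score, had an AC level of 5.18 CPM in E26a, 128 in P4, 507 in P8a, 730 in P8b, 638 in P12a, 641 in P12b, 1422 in P17 and 5390 in P21. Row 26074 had 0 UMIs in E26a and 112 CPM in P4, lay at 177 and 147 CPM in the P8 libraries and at 395 and 119 CPM in the P12 libraries, and reached 354 CPM in P17 and 1012 CPM in P21. The P12 libraries of row 26074 differed by more than P4 and P8 did, so its course between P4 and P12 was not larger than the spread at 1 age. Row 20296, already at 1337 CPM in E26a and 1277 CPM in P4, reached 2219 CPM in P17 and 3723 CPM in P21.

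A few members ran the other way. Row 31627 was highest in E26a at 990 CPM, lay at 643 CPM in P4, 605 and 490 CPM in P8, 734 and 447 CPM in P12, and had its lowest values, 434 CPM in P17 and 364 CPM in P21. Row 15304 stood at 503 CPM in E26a, 232 CPM in P4 and 41.5 CPM in P21. Row 23268 had its peak in P4 at 1350 CPM, after 51.8 CPM in E26a, and lay between 540 and 909 CPM in all later libraries.

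**Figure D2:**
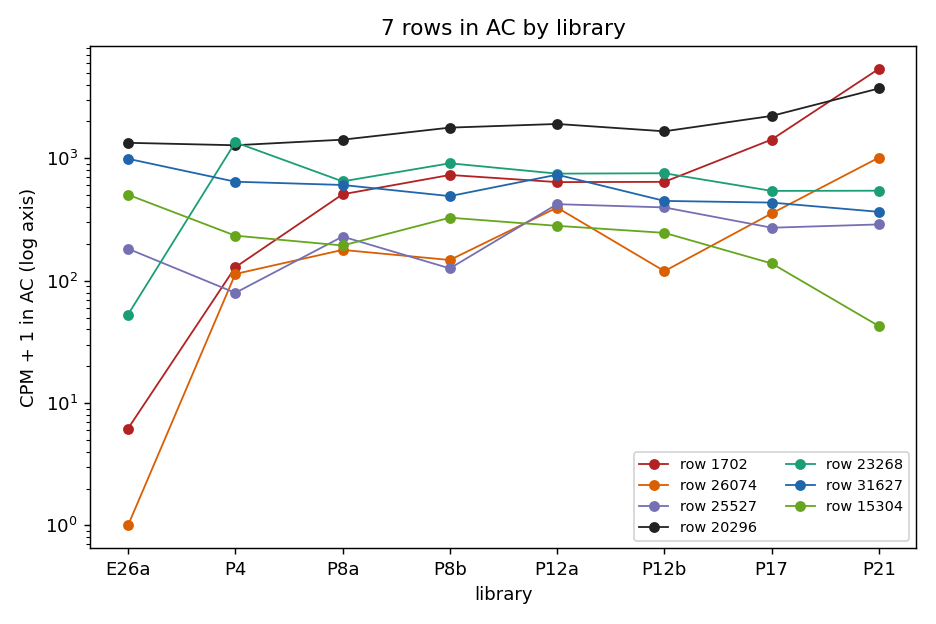
CPM + 1 of 7 rows in AC (log axis) in each of the 8 libraries, 1 point per library. Row 1702 runs from 5.18 CPM in E26a to 5390 CPM in P21 and row 20296 stays above 1000 CPM throughout, whereas row 31627 and row 15304 are highest in E26a and row 23268 in P4.

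Age within postnatal AC was tested with the 4 libraries of P12 and later against the 3 libraries of P4 and P8 (edgeR quasi-likelihood test over 14037 rows, adjusted p below 0.05). The test called 1 of the 100 members higher and 0 lower, against 0.107% of all rows higher and 0.349% lower. The other 99 had no call, although all 100 were tested, 81 had a positive change and 43 had an unadjusted p below 0.05. The median change of the list was 0.74 on the log2 scale, against 0.04 for all rows. The share of all rows with a positive change or an unadjusted p below 0.05 was not computed. The later libraries supplied 77.2% of the AC UMIs that chose the list, so its changes are not independent of that choice. The member called was row 19981, with 0, 1.40 and 1.44 CPM in P4, P8a and P8b and 19.5, 22.2, 75.7 and 195 CPM in P12a, P12b, P17 and P21, so the groups did not overlap (log2 change 6.18 ± 1.14 SE). Of its 1882 UMIs in AC, 1876 came from P12 and later libraries, so it passed the 50 CPM limit of the rule through the group in which it was higher, and its call is a description. Leaving out P4, P8a, P8b or P17 ended that call, and without P12a or P21 2 members were called. With no filter on low counts 37 members were called higher, against 2% of all rows, and with DESeq2 11, against 1.67%. Row 1702 changed by 2.05 ± 0.79 SE and was not called, with 2023 ± 2275 CPM (SD, n = 4) in the later and 455 ± 304 CPM (SD, n = 3) in the earlier libraries.

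When postnatal day replaced the division at P12, 43 of the 100 members rose with day and 2 fell, against 5.55% of all rows rising and 4.13% falling. The members that fell were row 15304, by 0.15 per day on the log2 scale (adjusted p = 0.0353), and row 23268, by 0.084 per day (adjusted p = 0.0255). The P12 and later libraries held 77.2% of the pooled AC UMIs that chose the list, so these counts are not independent of the choice of members.

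In RGC the members were low before birth and mostly higher after it. Summed over the list they took 0.26 to 0.41% of RGC UMIs in the 7 embryonic libraries and 0.69 to 1.20% in the 7 postnatal ones, with no overlap. In HC the same sum was 0.21 to 0.33% in the 7 embryonic and 0.50 to 0.75% in the 6 postnatal libraries with at least 10 HC, again with no overlap. Within the same library, the RGC sum was 39.6% (P21) to 77.7% (P4) of the AC sum, the HC sum 35.6 to 51.8% and the Late_NG sum 10.7 to 25.0%. For comparison, the sum in Late_NG was 0.14 to 0.37% of UMIs with no steady course in age. Embryonic libraries held 83.7% of the RGC and 86.6% of the HC UMIs that entered the score. The rule therefore favored rows low in embryonic RGC and HC, and the sums of both types are a description. Such sums over other rows were not computed.

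**Figure D3:**
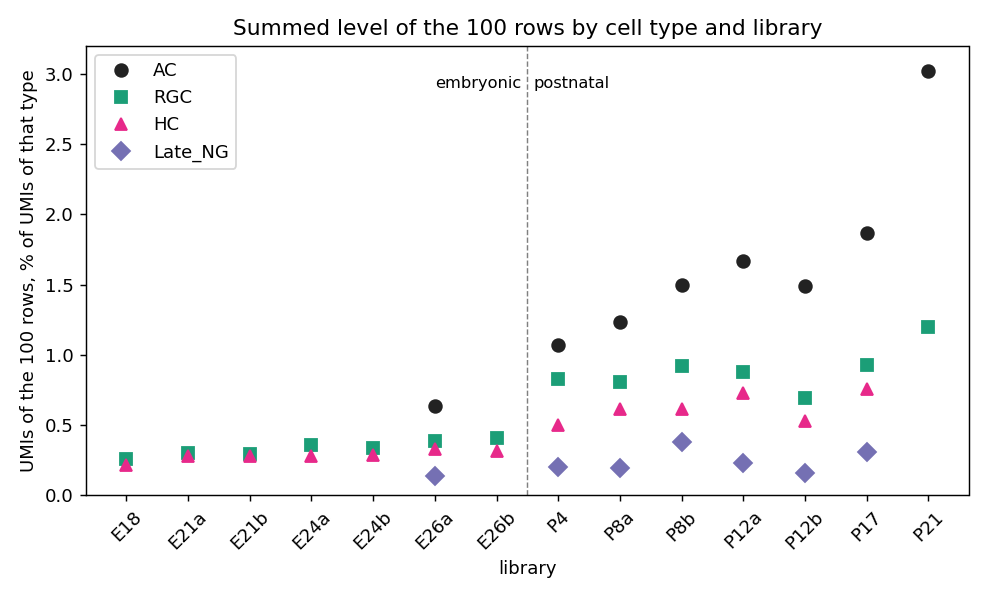
UMIs of the 100 rows as a percent of all UMIs of AC (circles), RGC (squares), HC (triangles) and Late_NG (diamonds) in each library with at least 10 cells of that type; the dashed line separates embryonic from postnatal libraries. AC runs from 0.63% in E26a to 3.02% in P21, RGC and HC lie higher in all postnatal than in all embryonic libraries, and Late_NG stays under 0.40%.

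For RGC, 62 of the 100 members were called higher after birth and 4 lower, 25 had no call and 9 did not pass the filter on low counts (edgeR, 13933 rows tested). Over all rows, 26.5% were called higher and 26.9% lower. The change was at least 2-fold in 52 of the 62, and in 49 of the 62 the 7 embryonic and 7 postnatal libraries did not overlap. Over all rows tested, 14% were called higher by at least 2-fold and 14.4% were called higher with no overlap. The median change of the 91 members tested was 1.31 on the log2 scale, against -0.03 for all rows. Embryonic libraries held 83.7% of the RGC UMIs that entered the score, so a row low in embryonic and high in postnatal RGC passed the rule more easily, and the counts are a description.

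The largest rises in RGC among rows without overlap were those of row 1702 and row 14816. Both passed the filter on low counts only through postnatal RGC, in which they were higher. The score also used RGC UMIs that were 83.7% embryonic, so the changes and p-values of both rows are a description. Row 1702 lay at 0.27 ± 0.20 CPM (SD, n = 7) in embryonic RGC, at most 0.66 CPM, and at 19.6 ± 15.2 CPM (SD, n = 7; 3.53 in P12b to 47.4 in P21) in postnatal RGC (log2 change 5.90 ± 0.56 SE, adjusted p = 5.08e-07). Row 14816 lay at 1.25 ± 0.85 CPM in embryonic RGC and at 75.8 ± 63.0 CPM in postnatal RGC, from 30.2 CPM in P4 to 210 CPM in P21 (log2 change 5.796 ± 0.52 SE, adjusted p = 3.05e-07). The mean of row 1702 in the same postnatal libraries was 1351 CPM in AC, 52.2 CPM in BC, 45.3 CPM in cones and 26.6 CPM in MG, so RGC had the lowest of these levels. In P21 it was 5390 CPM in AC and 47.4 to 152 CPM in BC, cones, MG, RGC and rods. The AC share of a library's cells did not exceed 2.77% in embryonic retina and was 23.0% or more in postnatal retina, so AC abundance moved with the change in RGC, and its part in the rise was not tested. Of the 62 rows called higher, 55 had a postnatal mean in RGC above those in BC, cones and MG, and 15 had one above the AC mean. These shares were not computed for all rows called higher, so they do not set the list apart.

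The 4 members called lower in RGC were row 29849, row 32475, row 21557 and row 15304. Row 29849 was 27.7 ± 6.0 CPM (20.8 to 39.9) in embryonic and 11.8 ± 4.8 CPM (6.39 to 19.7) in postnatal RGC, with no overlap (log2 change -1.28 ± 0.22 SE, adjusted p = 0.000115). The other 3 changed by -0.78 to -1.17 and their groups overlapped. Over all rows tested, 7.7% were called lower with no overlap.

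For HC, 33 of the 100 members were called higher after birth and 8 lower, 12 had no call and 47 did not pass the filter on low counts (edgeR, 7841 rows tested). Over all rows, 20.7% were called higher and 20.2% lower. The groups did not overlap for 23 of the 33 and 3 of the 8, against 9.08% of all rows called higher and 4.96% called lower with no overlap. With no filter on low counts the calls were 60 and 11, against 8.68% and 10.8% of all rows. With sums thinned to the smallest they were 2 and 0, against 20% and 18.1% of the 579 rows that could still be tested. Without P17 they were 25 and 5. As in RGC, most of the UMIs that entered the score (86.6%) were embryonic, so the counts are a description. The part of the higher AC share of postnatal libraries in these changes was not tested. Of the 33 rows, 29 had a postnatal mean in HC above those in BC, cones and MG, and 14 had one above the AC mean. The same shares over all rows called higher in HC were not computed. Both filters were passed by 53 members. Among these, 25 were called higher in both RGC and HC, which is 69.4% of the 36 called higher in RGC and 75.8% of the 33 called higher in HC. Over the 7793 rows tested in both, 13.6% were called higher in both, which is 55.7% of those called higher in RGC and 66.4% of those in HC. The sums for HC were small, down to 39032 UMIs in P8b, where 1 UMI is a large step in CPM.

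Row 29694 rose in HC from 3.80 ± 3.17 CPM (0 to 7.57, SD, n = 7) to 96.0 ± 64.8 CPM (38.1 to 205, SD, n = 6), a log2 change of 4.10 ± 0.41 SE (adjusted p = 7.2e-08). Row 27417 rose from 3.81 ± 2.58 CPM to 71.5 ± 45.2 CPM (25.6 to 148), a log2 change of 3.95 ± 0.33 SE (adjusted p = 7.17e-09). Both were clear of overlap. They passed the filter on low counts only through the postnatal libraries, in which they were higher, so their changes and p-values are a description. In the other direction, row 21557 fell from 81.3 ± 34.9 CPM (49.6 to 135) to 7.17 ± 10.0 CPM, with 0 UMIs in P8a, P12a and P12b (log2 change -3.98 ± 0.46 SE, adjusted p = 5.18e-07). Row 21557 passed the filter only through the embryonic libraries, in which it was higher, so its change is a description too. Row 31627 fell from 241 ± 25 CPM (213 to 292) to 34.4 ± 23.3 CPM (13.0 to 69.8), a log2 change of -2.96 ± 0.27 SE (adjusted p = 1.79e-08). After birth row 31627 stayed at 364 to 734 CPM in AC, where every library lay above every postnatal HC library. In RGC the same row lay at 43.5 to 82.5 CPM before birth and 105 to 207 CPM after it.

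**Figure D4:**
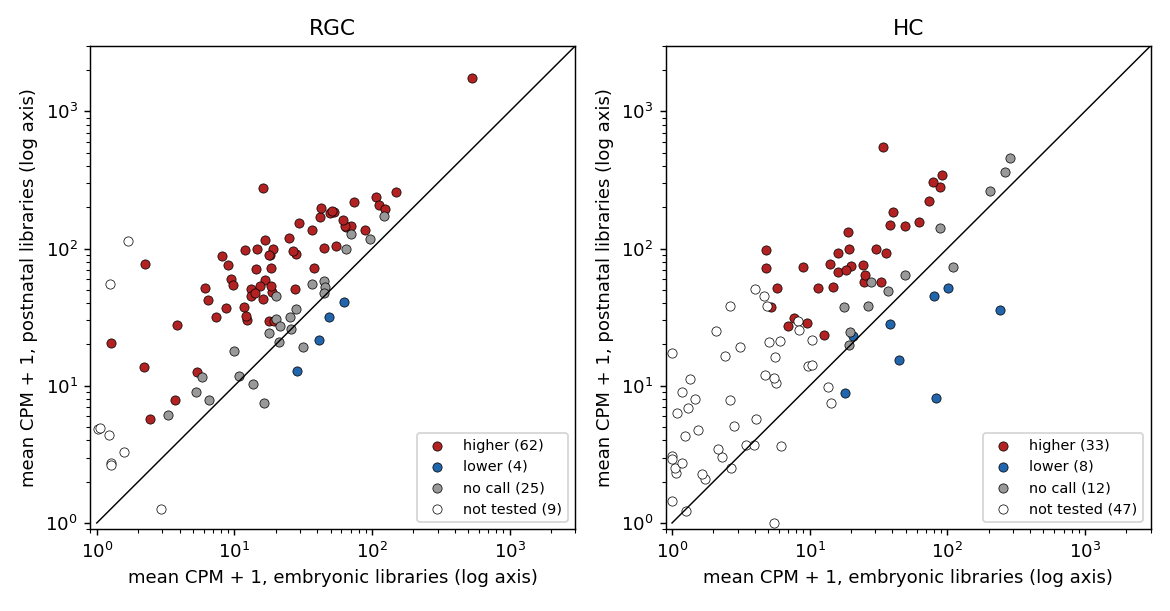
Mean CPM + 1 of each of the 100 rows over embryonic (horizontal) and postnatal (vertical) libraries in RGC (left) and HC (right), on log axes; the line marks equal levels. Red rows were called higher after birth (62 in RGC, 33 in HC), blue rows lower (4 and 8), grey rows had no call and white rows did not pass the filter on low counts (9 and 47).

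In Late_NG, the 3 libraries of P12 and P17 were compared with the 3 libraries of P4 and P8. Of the 100 members, 29 passed the filter, 0 were called by edgeR and 2 had an unadjusted p below 0.05 (5803 rows tested, of which 0.569% were called higher and 0.551% lower). DESeq2 also called 0, and edgeR with no filter on low counts called 1 lower, against 0.7% of all rows. The 2 members, which are named because they complete the count, were row 31627 (log2 change -1.08 ± 0.47 SE) and row 6280 (-1.36 ± 0.58 SE), both with overlapping groups. The sums held 84310 to 722020 UMIs, and 71 members were too low to test, so a change in most of the list was not detectable at this depth. Row 20296 was at 332 to 565 CPM in all 6 libraries and row 19981 had no UMI in any.

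The change from P4 and P8 to P12 and later was larger in AC than in RGC of the same 7 libraries for 3 of the 100 members and smaller for 0 (edgeR interaction of type and period with library as a block, 13909 rows tested, 0.338% called higher and 0.324% lower). The median difference was 0.40 on the log2 scale, against -0.02 for all rows, and 77 members had a positive one. The score set the AC level, mostly from P12 and later, against that of the highest other type, which was RGC for 31 members. The choice of members therefore favored a larger later change in AC than in RGC, and these values and calls are not independent of it. Row 32475 lay at 39.9, 73.5 and 71.8 CPM in AC of P4, P8a and P8b and at 121, 179, 112 and 59.6 CPM in P12a, P12b, P17 and P21. In RGC it went from 35.6, 20.2 and 28.1 CPM to 21.7, 22.9, 11.7 and 3.84 CPM (difference 1.71 ± 0.36 SE, adjusted p = 0.036). The AC levels of that row overlapped between the periods, while the ratio of AC to RGC did not. Row 25527 lay in AC at 78.5, 228 and 125 CPM and then at 421, 396, 270 and 287 CPM, and in RGC lay at 19.4, 35.1 and 7.80 CPM and then at 20.3, 21.2, 11.1 and 11.96 CPM (difference 1.46 ± 0.30 SE, adjusted p = 0.0331). Row 19900, the third, differed by 0.96 ± 0.21 SE (adjusted p = 0.0433) and reached 320 CPM in AC and 474 CPM in RGC at P21. Without P4 or P17 none of the 3 was called, without P8b or P12b the count was 1, and without P21 it was 12. With no filter on low counts it was 20, against 1.19% of all rows, and with thinned sums 13, against 0.816%.

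In a single AC, UMIs of only a small part of the list were found. A member without a UMI may still be expressed in that cell, so these are counts of detection at the depth used. Cells were thinned to 1000 UMIs so that depth did not enter, which left out 124 of 9841 AC. The median AC then held a UMI of 10 members (5th to 95th percentile 3 to 19), against 4 in BC, 3 in RGC, HC and cones, 2 in Late_NG, MG, rods and photoreceptor precursors and 1 in progenitors of both stages. In AC the median was 5 members in E26a, 7 in P4, 11 in P17 and 14 in P21. The median member was found in 7.34% of thinned AC, 60 members in under 10% and 14 in over 20%. Only 0.20% of thinned AC held no member UMI, against 5.64% of HC, 5.94% of RGC and 15.3% of Late_NG.

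Members differed in how they were spread over the AC. Row 20296 was found in 77.2% of thinned AC (91.5% unthinned) and row 23268 in 28.9% (39.1%), the highest shares of the list. The lowest shares were those of row 29430 at 1.49% (3.39% unthinned) and row 13973 at 1.82% (4.06%). Row 1702 was found in 12.4% of thinned AC (18.3% unthinned), with 6.84 UMIs per positive cell and a variance 16.2 times its mean, where independent draws would give a ratio near 1. Row 29430 had a ratio of 13.2, and 11 members had a ratio over 2, whereas 77 had one under 1.5. A minority of the AC therefore held the UMIs of row 1702.

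For row 1702 both the share of positive AC and the UMIs in them differed between P4 and P21. Each of these ages was a single library, so age cannot be told apart from library here. The share was 5.45% of thinned AC in P4 (95% Wilson interval 4.32 to 6.85%), with 2.41 UMIs per positive cell. In P21 it was 24.4% (22.4 to 26.6%), with 10.5 UMIs per positive cell. Row 29430 was found in 0 of 1248 thinned AC in P4, which allows a share of up to 0.240% of cells with a UMI at 3 counts of the total (the upper end of the Wilson interval is 0.307%), and in 4.01% (3.14 to 5.09%) in P21. The intervals cover counting error only. UMIs of row 1702 were also found in 7.62% of thinned cones and 6.14% of thinned BC, and in 0.45% of RGC, and those of row 29430 in 2.03% of thinned BC. These shares pool all ages, and 80.5% of RGC were embryonic, where row 1702 did not exceed 0.66 CPM. The share in RGC is therefore not like for like with those in cones and BC. The median depth was 2354 UMIs in AC, 2582 in cones and 2236.5 in BC. With no gene names, no type can be said to lack these rows, and free RNA in the droplets cannot be told apart from expression at such levels.

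Most pairs of members showed little correlation of thinned counts across AC of 1 library. The median member was found in 7.34% of thinned AC, so a low r in these counts cannot show that members are unrelated. Over 4950 pairs, Pearson's r of the log thinned counts, computed within each library and averaged over at most 8 libraries, had a median of 0.0058, and 12 pairs exceeded 0.2. The 3 highest were row 1702 with row 19403 (mean r 0.36, 0.051 to 0.49 over libraries), row 31627 with row 15304 (0.32, -0.015 to 0.47) and row 25839 with row 25840 (0.28, 0.17 to 0.36). Pooled over libraries, 57.0% of thinned AC with row 19403 also held row 1702, which was found in 12.4% of all thinned AC. Both of these rows were highest in P21. Of thinned AC with row 15304, 49.6% held row 31627, which was found in 27.2% of all thinned AC, and both rows were highest in E26a. Unlike the r within libraries, these pooled shares also take in differences between ages. Row 25839 and row 25840 have adjacent row numbers, so reads shared between similar or overlapping genes could not be checked. The lowest mean r was that of row 23268 with row 31627 (-0.15, -0.30 to -0.072), chosen here because it was the only pair below -0.1. These correlations are descriptions of sparse counts from cells that share a library.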

How the data were processed

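The data were UMI counts per gene row and cell, which the authors deposited as 1 matrix of raw counts, with a cell table of names, time points and cell types. Per the study's methods, the reads were processed with Cell Ranger 3.1.0 on the 13LGS genome, the cells were analysed in Seurat 4.0.4, and types were named by cluster. Filters on cells, removal of doublets, and the use of methanol-fixed cells or of nuclei from flash-frozen tissue in each library were not stated. The other deposited columns, coordinates of an embedding, were not used.

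Library suffixes in the cell names were matched to the labels by time point. P1 had 2 suffixes and 1 labelled sample, so its 6920 of 53394 cells were left out, also from the choice of the list. All other cells were kept, and no doublets were removed. Libraries shared 263 barcodes (527 cells). The matrix has 34181 rows and the list of names 30265 entries, so names were not paired with rows.

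UMIs were summed per library and type with at least 10 cells. Sums were tested with edgeR 4.0.16 (TMM, filterByExpr, quasi-likelihood test) in R 4.3.3, with Benjamini-Hochberg adjustment over all rows tested, and with DESeq2 1.42.0 as an alternative. Log2 changes are from the TMM-scaled fit and CPM values are unscaled. The tests were checked on simulated counts. For shares of cells, each cell was thinned to 1000 UMIs and shallower cells were left out. Values were computed in Python 3.11.15 with numpy 2.4.6, scipy 1.17.1 and pandas 2.3.3.

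The members and the comparisons were chosen with earlier results of these data known. Named rows are the 10 highest scores, the 2 rows on each side of the list's end, the 2 most abundant members in each of HC, RGC and Late_NG, up to 2 rows in each direction per test among called rows whose groups did not overlap, the 3 pairs with the highest r, and the 2 highest and 2 lowest shares of AC. Alternatives were other scalings, filters, thinning, removal of cells above 2 times the median UMI count of their library and type, and leaving out each library.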

Additional observations from a re-analysis of the deposited data

Results flagged for a closer look

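Dixon's ratio was computed for 48 groups of 4 to 10 libraries, and 3 had a library far from the others; chance alone gives about 1 in 20. Row 1702 in AC was 5390 CPM in P21, apart from the other 3 libraries of P12 and later. Row 14816 in RGC was 210 CPM in P21, apart from the other 6 postnatal libraries. Row 21557 in HC was 25.6 CPM in P8b, the smallest HC sum with 19 cells, where this value is a single UMI.

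The change with age differed between AC and RGC of the same libraries for row 32475 by 1.71, for row 25527 by 1.46 and for row 19900 by 0.96 on the log2 scale. Leaving out P4 or P17 ended all 3 calls.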

How the results depend on the processing

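No paired analysis was possible because the cell-name suffixes carry no replicate number that could pair libraries of different ages; the comparison of AC with RGC took the library itself as a block. In RGC, all alternatives left 54 to 66 members higher and 4 to 6 lower (60 to 65 and 4 to 5 when 1 library was left out). In HC, 33 higher and 8 lower became 60 and 11 with no filter on low counts, 2 and 0 with sums thinned to the smallest, where few rows could be tested, and 25 to 36 and 5 to 9 when 1 library was left out; without P17 the counts were 25 and 5. Postnatal libraries of P12 and later alone, chosen after seeing the data, gave 66 higher in RGC and 43 in HC. For AC with age, 1 higher became 37 with no filter, 11 with DESeq2, 3 with thinned sums, 2 without cells of high UMI count, 2 with E26 added to the earlier group, 43 higher and 2 lower with postnatal day, and 0 to 2 when 1 library was left out; 0 were lower under the others. Late_NG had 1 lower with no filter. For AC against RGC, 3 became 20 with no filter, 6 with DESeq2, 13 with thinned sums, 5 without cells of high UMI count, and 0 to 12 when 1 library was left out: 0 without P4 or P17, 1 without P8b or P12b, and 12 without P21. A minimum of 30 cells changed the libraries only for HC. The list kept 78 (without P21) to 99 of its 100 rows when 1 library was left out, 75 without cells of high UMI count, 51 with a minimum of 100 CPM, 66 with the mean over libraries, 57 with postnatal libraries only and 63 without P17 and P21, the last 2 chosen after seeing the data. The median number of members per AC was 6 at 500 UMIs and 19 at 2000 UMIs. The causes of these differences were not tested. For several of these settings, such as P12 and later alone, cells of high UMI count removed or 1 library left out, no share over all rows is given. Those counts do not show whether the list changed more than all rows did. None of the 11 named changes under test reversed in direction under any alternative.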
